A study of Mus musculus with 9 samples.

Results

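The Schlafen genes form a mouse gene family that lies as 1 cluster on chromosome 11. RiboSeq sequences the RNA fragments that ribosomes protect from nuclease and counts them per gene. It was examined for 7 members of the family, Slfn1, Slfn2, Slfn3, Slfn4, Slfn5, Slfn8 and Slfn9, chosen by gene symbol. Of these, 6 are among the 16921 genes of the deposited table, whereas Slfn1 is not listed in it and was not analysed here. All cells were immortalized bone marrow-derived macrophages (BMDMs) of TTP-deficient mice, made with the oncogenes c-Myc and activated Ras. They lack endogenous tristetraprolin (TTP, encoded by Zfp36), which binds AU-rich elements in 3′UTRs and recruits the mRNA decay machinery. Cells with macrophage surface markers were transduced with a tet-inducible vector for GFP alone (GFP), for a GFP fusion of TTP (GFP-TTP), or for a GFP fusion of a TTP mutant (GFP-TTP-AA). In the mutant, both serines that the kinase MK2 phosphorylates are replaced by alanine. Every culture, GFP controls included, received doxycycline (1 μg/ml) for 6 h and LPS (1 μg/ml) for 1 h, and each of the 3 conditions had 3 libraries. Each condition was its own transduced and sorted cell population, so that line and construct cannot be told apart, and p-values measure only the spread between these libraries.

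Schlafen proteins share an N-terminal domain related to RNA-cleaving enzymes, and the long members also carry a helicase-like C-terminal part. The family was named after the German word for sleep, since Slfn1 slows thymocyte growth, and several members are induced by type I interferon and by LPS in macrophages. Of the 7 members examined, Slfn1 and Slfn2 are short, Slfn3 and Slfn4 intermediate, and Slfn5, Slfn8 and Slfn9 long. Coding lengths in GENCODE vM21 on GRCm38 were 337 codons for Slfn1, 378 for Slfn2, 640 for Slfn3, 602 for Slfn4, 884 for Slfn5, and 910 each for Slfn8 and Slfn9, the stop codon left out. The 7 members span 264 kb, from 82951349 to 83215154 of chromosome 11, with Slfn5 at one end and Slfn3 at the other. Slfn8 and Slfn9 are on the minus strand and the other 5 of these members on the plus strand. Slfn14, a further protein-coding Schlafen gene of 899 codons, lies beyond Slfn3, from 83275110 to 83286726, and was not among the members examined.

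TTP binds the heptamer TATTTAT (as DNA letters) with high affinity, and only Slfn5 and Slfn4 of the 7 members hold it in the annotated 3′UTR of their longest coding transcript. The 3 sites are shown with 10 bases on either side, the heptamer in capitals, because Slfn5 was the member that changed and Slfn4 the other member with a site.
Slfn5 3′UTR site, chr11:82962269-82962295, plus strand: ctacatgactTATTTATtcagaatctt
Slfn5 3′UTR site, chr11:82964399-82964425, plus strand: atcgcccttgTATTTATgtggggccat
Slfn4 3′UTR site, chr11:83189573-83189599, plus strand: tatttttttcTATTTATatgatcattt
The heptamer occurs 2 times in the 3136 bases of the Slfn5 3′UTR, together with 9 ATTTA pentamers that overlap it in part. Of 1333 mouse 3′UTRs within 20% of that length, 54.1% hold at least 1 heptamer and 20.6% at least 2, with a median of 5 pentamers. The Slfn4 3′UTR (922 bases) has 1 heptamer and 3 pentamers. Those of Slfn9 (2786 bases) and Slfn8 (921 bases) have 5 and 2 pentamers but no heptamer. Those of Slfn2 (345 bases), Slfn1 (597 bases) and Slfn3 (39 bases) contain neither motif. Over all 13502 3′UTRs, 26.3% hold at least 1 heptamer, and the median length is 912 bases. The 39 annotated bases of Slfn3 therefore leave little room for a site.

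The interferon-stimulated response element (ISRE) is the DNA element at which interferon-activated transcription factors such as IRF9 bind. Its core was searched on both strands as GAAANNGAAA, in RefSeq promoters of GRCm38.p6 that reach from 250 bases before to 50 after a gene's start. All 7 members matched a promoter, and the core was found in Slfn5, Slfn8 and Slfn9 but not in Slfn1, Slfn2, Slfn3 or Slfn4, against 3.44% of 32851 promoters. The palindromic GAS core TTCNNNGAA was found in none of the 7, against 8.3% of all promoters. Promoters of 3 members are printed with the core in capitals: Slfn5, which changed, Slfn9, which holds the core on the opposite strand, and Slfn2, the member with most footprints.
Slfn5 promoter, chr11:82951852-82952151, plus strand: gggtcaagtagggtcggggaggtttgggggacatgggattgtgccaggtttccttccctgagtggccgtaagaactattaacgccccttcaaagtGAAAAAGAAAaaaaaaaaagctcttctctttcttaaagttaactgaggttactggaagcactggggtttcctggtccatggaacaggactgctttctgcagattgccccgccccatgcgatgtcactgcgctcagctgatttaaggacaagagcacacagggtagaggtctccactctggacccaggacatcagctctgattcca
Slfn9 promoter, chr11:82991781-82992080, minus strand: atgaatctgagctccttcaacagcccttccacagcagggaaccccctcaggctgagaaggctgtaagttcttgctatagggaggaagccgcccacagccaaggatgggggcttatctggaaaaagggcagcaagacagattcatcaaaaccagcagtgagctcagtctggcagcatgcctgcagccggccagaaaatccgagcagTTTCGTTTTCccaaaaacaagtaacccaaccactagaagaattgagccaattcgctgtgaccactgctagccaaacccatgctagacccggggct
Slfn2 promoter, chr11:83064862-83065161, plus strand: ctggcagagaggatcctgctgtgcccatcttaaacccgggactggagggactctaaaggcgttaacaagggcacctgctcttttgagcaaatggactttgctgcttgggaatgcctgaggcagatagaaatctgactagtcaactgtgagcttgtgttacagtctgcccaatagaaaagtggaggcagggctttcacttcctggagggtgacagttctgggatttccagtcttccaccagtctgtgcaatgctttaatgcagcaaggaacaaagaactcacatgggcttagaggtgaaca
The first base of the match lies at -155 in the Slfn5 promoter and at -45 in that of Slfn9, counted from the RefSeq start. For Slfn5 this is not the GENCODE start at 82951349, and the printed window lies within the GENCODE gene. A match describes these letters and is no evidence of binding.

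The deposited values are those fitted by the authors' DESeq2 model, in which every gene has a condition term and a replicate (library date) term. Once divided by the library's size factor, a value is therefore nearly the same multiple of the GFP value in each of the 3 replicates, and the spread between replicates below is that of the replicate term. The error of a condition comes from the standard errors in the authors' comparison tables. Fitted values summed to 2570292 to 12804501 per library and were divided by size factors of 0.415 to 2.12. Only genes whose fitted values averaged 10 or more were tested. As a check of labels, the GFP libraries had 459 Zfp36 footprints, GFP-TTP had 927 and GFP-TTP-AA had 1535 (geometric means over 3 libraries). Reads from the disrupted endogenous gene and the construct cannot be told apart. Of 9 macrophage marker genes 8 were above the filter, with summed values of 71848 to 122114 per library. Marker lists of T cells, B cells, dendritic cells and fibroblasts summed to at most 4.3 in any library.

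Slfn2 was by far the most abundant Schlafen gene. Divided by size factor and by coding length, its footprints were 2132 per kb in the geometric mean over all 9 libraries, against 81.6 for Slfn9, 39.7 for Slfn3, 31.8 for Slfn5, 1.54 for Slfn8 and 0.806 for Slfn4. Slfn2 accounted for 88.1% to 95.6% of the summed per-kb footprints of the 6 measured members in every library. The order between the first and second place, and between the 4 tested members and the remaining pair, was the same in all 3 conditions. Slfn3 and Slfn5 were neighbours in this order with ranges that overlapped in GFP, where Slfn3 lay between 31.9 and 37.1 per kb and Slfn5 between 33.8 and 46.0. In GFP-TTP, Slfn5 (11.2 to 15.2 per kb) was below Slfn3 (41.3 to 48.1) without overlap. In GFP-TTP-AA, Slfn5 (47.6 to 64.9 per kb) was above Slfn3 (39.9 to 46.7), again without overlap. These ranges are of fitted values and hold the replicate term alone, so that overlap or its absence is no measure of error. The exchange of places between these genes was not tested.

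**Figure D1:**
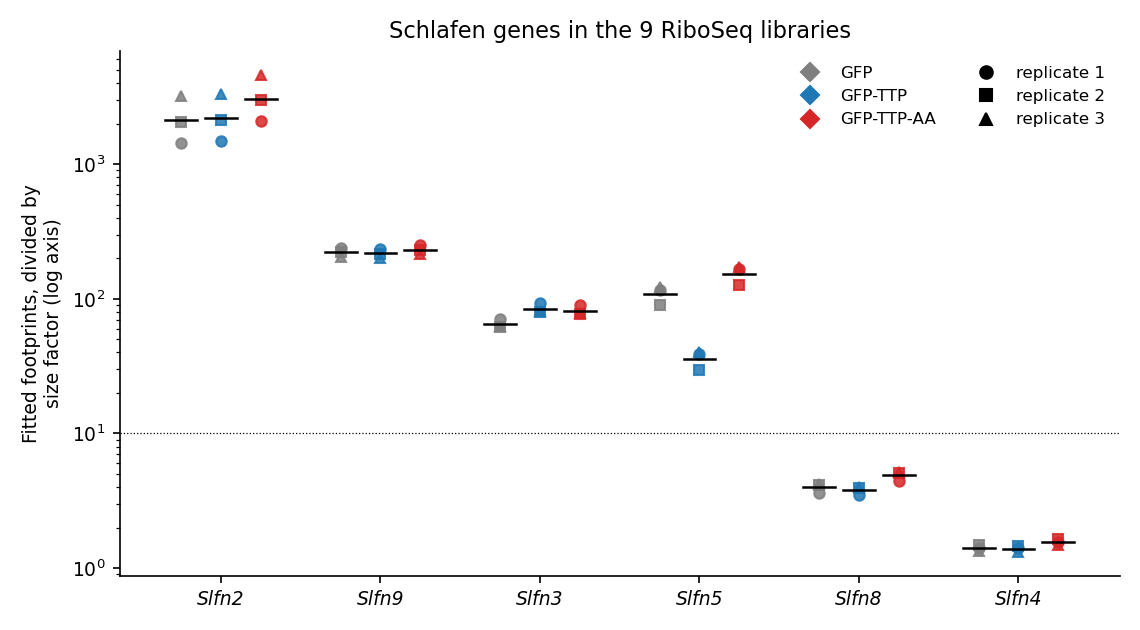
Fitted footprints divided by the library's size factor (log axis) of 6 Schlafen genes, with 1 point per library, coloured by condition and shaped by replicate; bars are geometric means of the 3 libraries of a condition, and the dotted line marks 10. Slfn5 is lowest in GFP-TTP, Slfn2 spreads by replicate in every condition, and Slfn8 and Slfn4 lie under the line.

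Slfn5 was the single member that passed the test in any comparison. Human SLFN5 is known as an interferon-induced repressor of transcription and as a restriction factor of herpesviruses. In GFP macrophages, the size factor-normalized Slfn5 values were 117, 89.7 and 122 in replicates 1, 2 and 3. They were 38.8, 29.7 and 40.3 in GFP-TTP macrophages and 166, 126 and 172 in GFP-TTP-AA macrophages. All 3 GFP-TTP values were below all GFP values, and all 3 GFP-TTP-AA values were above them. This order follows from the fitted condition terms, as each replicate shifts all 3 conditions alike. Per condition, Slfn5 was 110 ± 17.4 in GFP, 36.3 ± 5.76 in GFP-TTP libraries and 155 ± 24.8 in GFP-TTP-AA (SD of fitted values, n = 3).

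Slfn5 fell in GFP-TTP against GFP by 1.60 on the log2 scale (SE 0.23, 95% interval -2.06 to -1.14, adjusted p = 4.84e-09), or 3.02-fold. This p is that of a Wald test, computed from the log2 difference of the fitted values and its standard error in the authors' DESeq2 table, with Benjamini-Hochberg adjustment over all tested genes, as are the other Wald p-values. Slfn5 was the 1 member called lower and none called higher of 4 tested, against a background of 1.29% lower (128 genes) and 0.815% higher (81) among 9939 genes, 2.1% in all. By size of the change, Slfn5 ranked 13 of these genes. In bulk RiboSeq, fewer cells with the transcript, less mRNA per cell and fewer ribosomes per mRNA cannot be told apart. GFP-TTP-AA against GFP gave no Schlafen call in either direction, where 1.75% of 10202 genes were called higher and 1.26% lower, 3.02% in all. By the unadjusted Wald p, 2 of the 4 members (Slfn2 and Slfn5) were under 0.05 there, as were 14.2% of all genes tested. For Slfn5 the log2 fold change was 0.50 (SE 0.23, 95% interval 0.05 to 0.95), with an unadjusted p of 0.0295 and a Wald adjusted p of 0.266. Between the mutant and the wild-type fusion, Slfn5 was 4.27-fold higher in GFP-TTP-AA (log2 2.09, SE 0.23, 95% interval 1.63 to 2.55, Wald adjusted p = 1.66e-16), which ranked 18 of 10202 genes by size. It was the 1 member of 4 called higher and none was called lower, against 5.64% of genes higher and 4.63% lower, 10.3% in all. The comparisons share libraries, so that these changes are not independent of each other. Zfp36 itself was called higher in GFP-TTP-AA than in GFP-TTP (log2 0.73, SE 0.25, Wald adjusted p = 0.0394). The part of this difference in the Slfn5 result was not tested. Over all tested genes the median log2 fold changes were 0.00, 0.01 and 0.00 in the 3 comparisons. Over the 4 tested members the medians were 0.01 in GFP-TTP against GFP, 0.41 in GFP-TTP-AA against GFP and 0.29 in GFP-TTP-AA against GFP-TTP.

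Among lists of markers of other cells, S100a8 was the single neutrophil marker above the filter. The 2 listed neutrophil markers summed to 21.4 to 39.8 in GFP, 20.2 to 37.8 in GFP-TTP libraries and 43.9 to 82.4 in GFP-TTP-AA libraries, while Ly6g, Elane and S100a9 are not listed in the table. Macrophage markers summed to 88869 to 107604 in GFP, 71848 to 85844 in GFP-TTP libraries and 99998 to 122114 in GFP-TTP-AA. Such a sum follows the most abundant markers of its list, so that its differences need not hold for each marker. The part of these markers in the Slfn5 result was not tested.

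**Figure D2:**
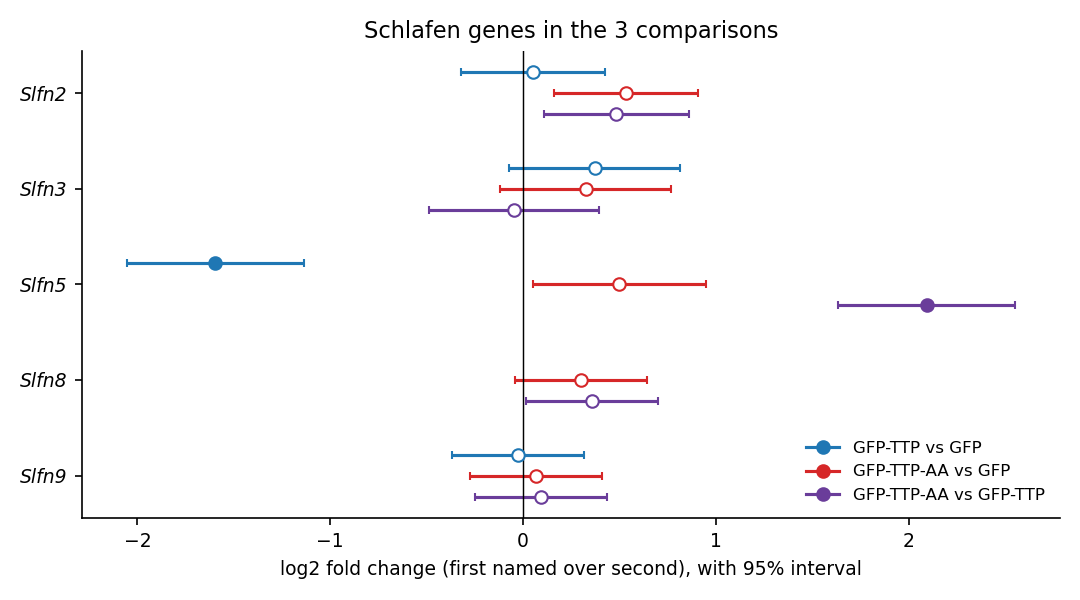
Log2 fold changes of 5 Schlafen genes with 95% intervals from the standard errors, coloured by comparison; filled circles have an adjusted p under 0.05, and Slfn8, whose values were under the filter, has no error in GFP-TTP against GFP. Slfn5 lies at -1.60 and 2.09 in the comparisons with GFP-TTP, away from the other members.

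Slfn2, which T cells and monocytes need to stay quiescent and whose elektra mutation causes immunodeficiency in mice, did not pass the test in any comparison. Its normalized values were 1429, 2067 and 3193 in GFP, 1484, 2140 and 3298 in GFP-TTP libraries, and 2077, 2986 and 4616 in GFP-TTP-AA. The ranges of all 3 conditions overlapped, with replicate 3 above replicate 2 and replicate 2 above replicate 1 in each. Between GFP-TTP and GFP the log2 fold change of Slfn2 was 0.05 (95% interval -0.32 to 0.42, Wald adjusted p = 0.964). GFP-TTP-AA gave 0.53 against GFP (SE 0.19, 95% interval 0.16 to 0.91, Wald adjusted p = 0.104) and 0.48 against GFP-TTP (SE 0.19, 95% interval 0.11 to 0.86, Wald adjusted p = 0.0874). Both values of Slfn2 crossed the threshold when the median of all chromosome 11 genes was subtracted from every gene of the table, with 0.61 (Wald adjusted p = 0.0377) and 0.59 (Wald adjusted p = 0.0224). These medians were -0.08 over 875 genes in GFP-TTP-AA against GFP and -0.10 in GFP-TTP-AA against GFP-TTP. The whole Schlafen cluster lies on this chromosome.

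The replicate term of Slfn2 was among the largest of the table. Its geometric mean over conditions was 1639 in replicate 1, 2364 in replicate 2 and 3649 in replicate 3, so that replicate 3 exceeded replicate 1 by 1.15 on the log2 scale, 2.23-fold. Only 65 of 10202 tested genes (0.637%) had a wider log2 range over the replicates, for which the median was 0.29 and the 95th percentile 0.73. Slfn5 had a log2 range of 0.44, with replicate 2 lowest, and 23% of genes exceeded it. The ranges of Slfn3, Slfn9, Slfn8 and Slfn4 were 0.22, 0.22, 0.21 and 0.14. The median of replicate 3 over replicate 1 was 0.23 (log2) for 39 interferon-stimulated genes and -0.01 for all tested genes. The tables hold no error for the replicate term, so that these differences were not tested.

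**Figure D3:**
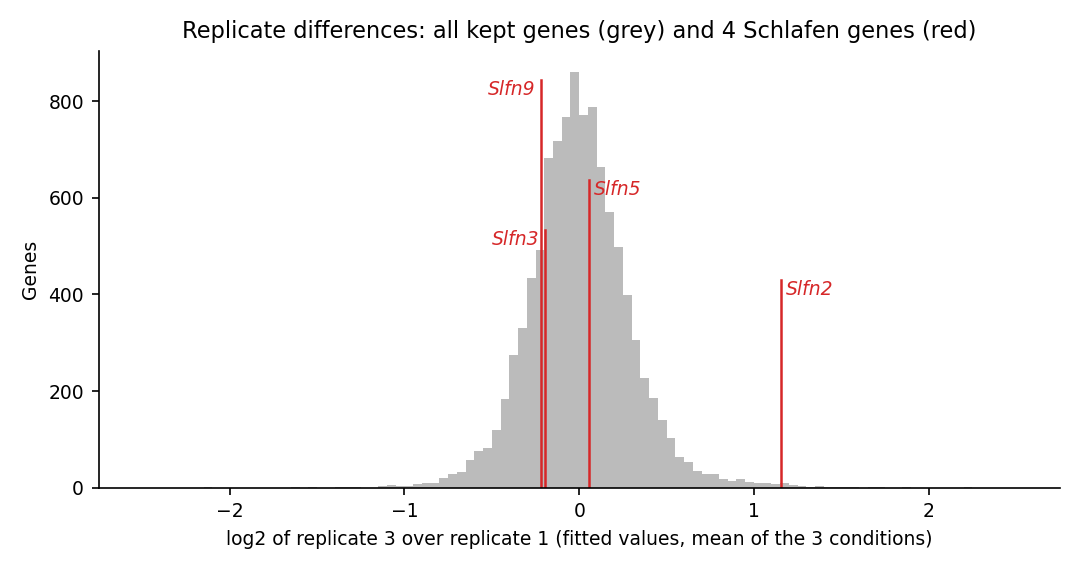
Number of genes by the log2 difference of replicate 3 from replicate 1 in the fitted values (grey, 10202 genes), with 4 Schlafen genes as red lines whose height carries no value. Slfn2 stands at 1.15 in the right tail, and Slfn3, Slfn5 and Slfn9 lie in the bulk.

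Slfn3, a member of intermediate length described in T cells and in the intestinal epithelium, had normalized values of 71.3, 61.3 and 62.4 in GFP, 92.4, 79.3 and 80.5 in GFP-TTP libraries, and 89.7, 76.7 and 78.1 in GFP-TTP-AA. Both fusion conditions were above GFP without overlap of the fitted values, but no comparison passed the test. The log2 fold change of Slfn3 was 0.37 in GFP-TTP (SE 0.23, 95% interval -0.07 to 0.81, Wald adjusted p = 0.565) and 0.33 in GFP-TTP-AA against GFP (SE 0.23, 95% interval -0.12 to 0.77, Wald adjusted p = 0.575). Between the fusions it was -0.05 (95% interval -0.49 to 0.40), and 0.06 after subtraction of the chromosome 11 median.

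Slfn9, a long member whose coding sequence has the same length as that of Slfn8, differed little between conditions. It had 238, 221 and 205 in GFP, 234, 217 and 201 in GFP-TTP libraries, and 250, 230 and 214 in GFP-TTP-AA. The ranges overlapped throughout. Its log2 fold changes were -0.03 (95% interval -0.37 to 0.32), 0.07 (-0.28 to 0.41) and 0.09 (-0.25 to 0.43) in GFP-TTP against GFP, GFP-TTP-AA against GFP and GFP-TTP-AA against GFP-TTP, with Wald adjusted p of 0.979, 0.946 and 0.820. These intervals reach up to 1.35-fold. They surround shrunken estimates and so set no upper limit on the unshrunken change.

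Slfn8 and Slfn4 were below the filter and not tested. Slfn8, which is known to modify T cell responses in autoimmune models, had 3.62, 4.11 and 4.21 in GFP, 3.49, 3.95 and 4.04 in GFP-TTP libraries, and 4.47, 5.05 and 5.17 in GFP-TTP-AA. Its authors' mean of normalized counts was 4.74, about 42.7 normalized reads over all 9 libraries together. The log2 fold change of Slfn8 was 0.30 in GFP-TTP-AA against GFP (unadjusted p = 0.0874) and 0.36 against GFP-TTP (unadjusted p = 0.0418), with an SE of 0.17 in both. The authors' model shrinks changes of genes with few reads towards 0, and the SE with them. Slfn4, known for its induction during macrophage activation and as a marker of myeloid cells in the infected stomach, had 1.34 to 1.48 in GFP, 1.32 to 1.46 in GFP-TTP libraries and 1.49 to 1.64 in GFP-TTP-AA. No standard error is given for it, and a change was not detectable at this depth.

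Reads of about footprint length cannot always be assigned to 1 member, and up to 2 alignments per read were allowed by the authors. In windows of 28 bases along the coding sequence, none of 2625 windows of Slfn5 was identical to a window of another gene of the cluster. In Slfn2, 12.8% of windows were shared with another member, in Slfn3 31.8%, in Slfn4 37.0%, and in Slfn8 and Slfn9 24.3% each. With windows shared with the pseudogene Slfn10-ps included, the share was 33.0% in Slfn8 and 39.4% in Slfn9. Slfn3 and Slfn4 shared 574 windows, Slfn8 and Slfn9 658, and Slfn9 and Slfn10-ps 852. The values of Slfn3, Slfn4, Slfn8 and Slfn9, per kb as well, are therefore uncertain in whether shared reads were counted and how they were split. Slfn10-ps passed the filter, with levels of 63.7, 62.6 and 60.6 in the GFP, GFP-TTP and GFP-TTP-AA conditions, and no comparison of it passed the test (Wald adjusted p from 0.934 to 0.984). Slfn14 had a fitted mean of 0.160. An antisense gene, Slfn5os, is annotated opposite Slfn5 and is not listed in the table, and as the strand setting of the counting is not stated, reads of this pair cannot be told apart.

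Genes around the cluster were compared next. Of 25 tested genes within 1 Mb, Slfn10-ps included, none was past the threshold of the Wald test in GFP-TTP against GFP, against 2.1% of all genes, and the median log2 fold change was 0.00. By unadjusted p under 0.05 they were 2 of 25, against 11.3% of all genes. Of the tested protein-coding genes, those with the closest starts upstream of Slfn5 were Nle1 and Rad51d. Nle1 is a ribosome assembly factor gene, and Rad51d acts in DNA repair by homologous recombination. In GFP-TTP against GFP, their log2 fold changes were -0.10 (SE 0.15) and -0.01 (SE 0.21). In GFP-TTP-AA against GFP-TTP, they were -0.11 (SE 0.15) and -0.04 (SE 0.21), none of them past the threshold. GFP-TTP-AA against GFP gave 1 call among the 25, 4% against 3.02% of all genes, the chemokine gene Ccl7, higher by 0.73 (SE 0.17, Wald adjusted p = 0.00238). In GFP-TTP-AA against GFP-TTP, 2 genes were higher and 3 lower, 20% of the 25 against 10.3% of all genes. Higher were Wfdc17 (log2 1.09, SE 0.23) and Ccl7 (0.94, SE 0.17). Lower were Acaca, the acetyl-CoA carboxylase gene (log2 -0.54, SE 0.14), Lig3, a DNA ligase gene (-0.46, SE 0.16), and the chemokine gene Ccl3 (-0.42, SE 0.14).

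**Figure D4:**
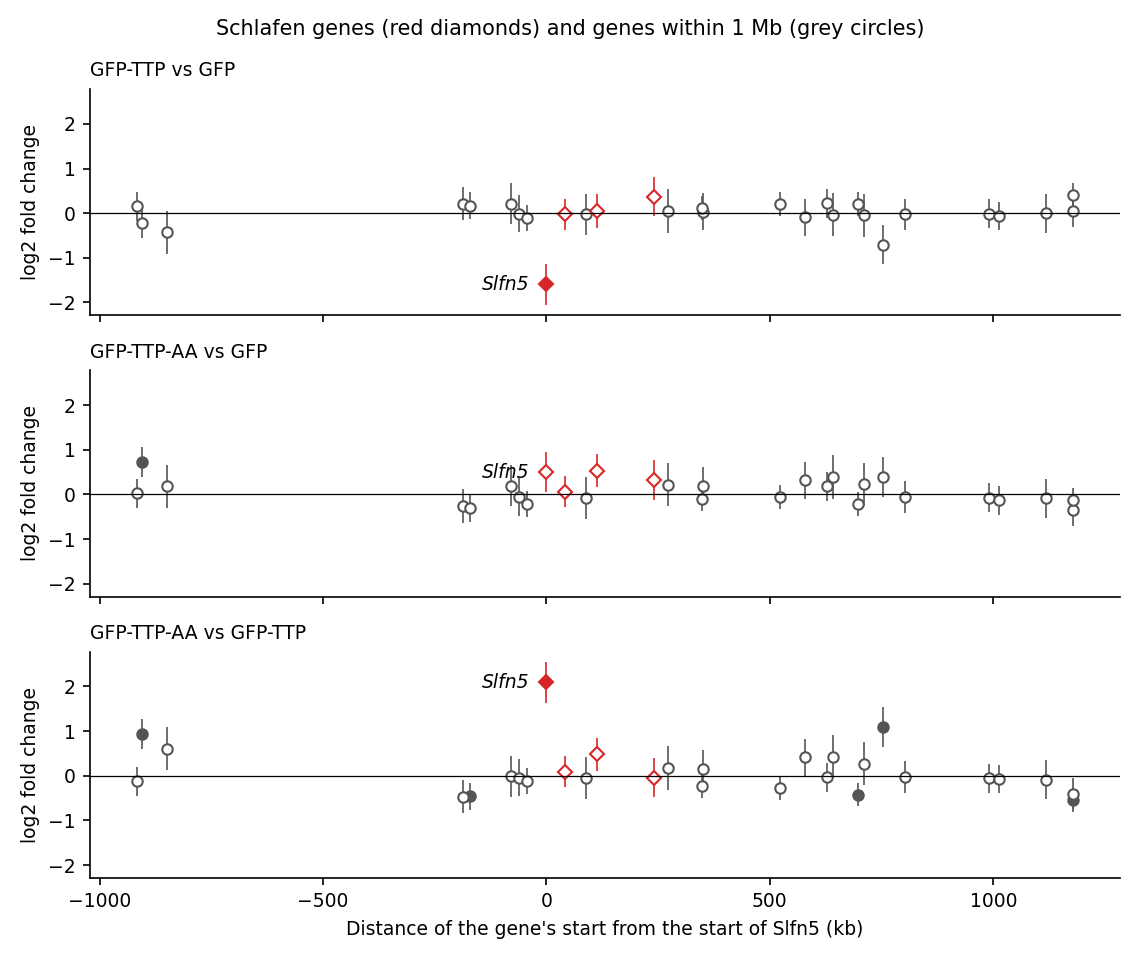
Log2 fold change with 95% interval against the distance of a gene's start from that of Slfn5 (kb), in 1 panel per comparison; red diamonds are the 4 tested Schlafen genes, grey circles the 25 other tested genes within 1 Mb, and filled symbols have an adjusted p under 0.05. In GFP-TTP against GFP, Slfn5 at -1.60 is the one filled symbol.

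Because Schlafen genes respond to interferon, they were set beside 47 interferon-stimulated genes, of which 43 are in the table and 39 passed the filter. In GFP-TTP against GFP, 13 of 38 tested genes of the list were lower and none higher, 34.2% against 2.1% of all genes, with a median log2 fold change of -0.53 and 37 of 38 values below 0. With a pseudocount of 10, 8 genes of the list in place of 13 were past the threshold. Those with the largest falls were Lgals3bp, a secreted galectin-binding protein (-2.68, SE 0.15), Usp18, the ISG15 protease that dampens interferon receptor signalling (-1.43, SE 0.24), Ifih1, the RNA sensor MDA5 (-1.34, SE 0.25), Oas3, an oligoadenylate synthetase (-1.31, SE 0.21), and Ddx58, the RNA sensor RIG-I (-1.26, SE 0.22). Of the 38 genes, 1 lay below the -1.60 of Slfn5. By contrast, 37 of the 38 lay below the values of Slfn2 (0.05) and of Slfn9 (-0.03), and all 38 below that of Slfn3 (0.37).

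In GFP-TTP-AA against GFP, 5 of 39 interferon-stimulated genes rose and none fell, 12.8% against 3.02% of all genes, with a median of 0.12. They were Oasl1 (log2 1.31, SE 0.23), which inhibits translation of Irf7 mRNA, Ifih1 (1.08, SE 0.24), Gbp2 (1.07, SE 0.24), a guanylate-binding protein, Lgals3bp (0.64, SE 0.14) and Tor3a (0.60, SE 0.16). The log2 values of Slfn2 (0.53) and Slfn5 (0.50) were exceeded by 7 and 8 genes of the list. GFP-TTP-AA against GFP-TTP called 25 of the 39 higher and none lower, 64.1% against 10.3% of all genes, with a median of 0.78. Lgals3bp (3.33, SE 0.15), Oasl1 (2.52, SE 0.23) and Ifih1 (2.42, SE 0.25) were the 3 genes above Slfn5 (2.09), followed by Xaf1 (1.61, SE 0.24) and Rtp4 (1.56, SE 0.25). In that comparison 25 genes of the list lay above the 0.48 of Slfn2, 36 above the 0.09 of Slfn9 and 38 above the -0.05 of Slfn3.

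**Figure D5:**
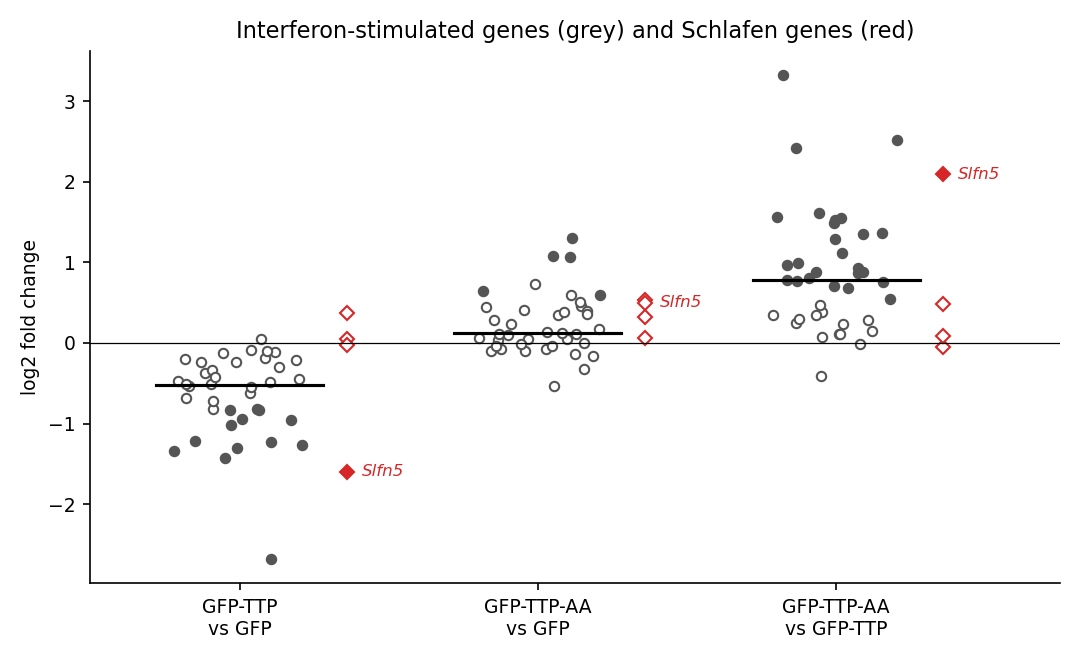
Log2 fold changes of the interferon-stimulated genes tested (grey circles, 38 in the first comparison and 39 in the others) and of Slfn2, Slfn3, Slfn5 and Slfn9 (red diamonds) in the 3 comparisons; filled symbols have an adjusted p under 0.05, and black bars are the list's medians. Slfn5 lies near the end of the list in the comparisons with GFP-TTP (-1.60 and 2.09), and the other Schlafen genes lie near 0 in GFP-TTP against GFP.

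Genes that carry LPS and interferon signals to such promoters were examined too, together with the feedback inhibitors Socs1 and Socs3. Of 18 tested genes of a list of 20, none passed the threshold of the Wald test in GFP-TTP against GFP, against 2.1% of all genes, with a median of -0.17. By unadjusted p under 0.05 they were 3 of 18, against 11.3% of all genes. The same count was 8 of 20 in GFP-TTP-AA against GFP and 8 of 20 in GFP-TTP-AA against GFP-TTP, against 14.2% and 22.2% of all genes. In GFP-TTP-AA against GFP, Ifnar1, a chain of the type I interferon receptor, was the 1 of 20 called, 5% against 3.02% of all genes (log2 0.56, SE 0.16, Wald adjusted p = 0.0209). Against GFP-TTP, 5 of 20 were higher in GFP-TTP-AA and none lower, 25% against 10.3% of all genes, with a median of 0.32. They were Irf9, the DNA-binding subunit of the factor that binds ISREs (1.16, SE 0.25), Ifnar1 (0.73, SE 0.16), Ly96, the LPS co-receptor MD-2 (0.56, SE 0.19), the feedback inhibitor Socs3 (0.53, SE 0.17) and Ifnar2, the other receptor chain (0.47, SE 0.15).

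By the log2 fold changes of both fusions against GFP, 8637 genes whose fitted values averaged 50 or more were ordered by their distance from Slfn5. Among the closest were Tgm2 (distance 0.16), a transglutaminase, Ripk3 (0.22), the necroptosis kinase, Ulbp1 (0.25), a ligand of the receptor NKG2D, and Sp100 (0.27), a nuclear body protein. In GFP-TTP against GFP the log2 fold changes of these 4 genes ranged from -1.76 in Sp100 to -1.47 in Tgm2. In GFP-TTP-AA against GFP they ranged from 0.26 in Ulbp1 to 0.71 in Ripk3, and none passed the threshold there (Wald adjusted p from 0.0508 in Ripk3 to 0.657 in Ulbp1). As the genes were chosen by these same log2 fold changes, the closeness of both ranges to Slfn5 follows from the choice and is no test. The 4 genes lie on chromosomes 1, 2, 10 and 14, apart from the Schlafen cluster.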

How the data were processed

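RiboSeq libraries of 3 conditions with 3 replicates each were grouped by their labels. Libraries were prepared with the ARTseq kit after rRNA depletion. Per the labels' processing notes, the authors used Trim Galore, TopHat2 (2.0.12), HTSeq and DESeq2 (1.6.3) with GRCm38 (mm10). Their methods keep up to 2 alignments per read, and the strand setting is not given in the sources used here. The deposited table that is named normalized counts holds a signal, the values the authors' DESeq2 model fitted per gene and library. A term per library (its size factor) and terms per gene for condition and replicate left a residual SD of 1.58e-15 of its log2 values. It has 16932 lines, 11 of them repeats and 1 without a gene name, and no zeros. The authors' comparison tables hold log2 fold changes, their standard errors, statistics and p-values. From these, only the standard error (log2 scale, shrunken with the fold changes by the authors' DESeq2 model) and the mean of normalized counts were used.

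Values were divided by median-of-ratios size factors over the 10202 genes whose fitted values averaged 10 or more (kept genes). Log2 differences of the fitted values, divided by the deposited standard errors, gave two-sided Wald p-values. These were adjusted over all kept genes with a standard error with the Benjamini-Hochberg procedure, and 0.05 was the threshold. Fold changes are shrunken, so that they understate changes of genes with few reads. Total reads of a library were not used here, and depth enters through the standard errors, at most 0.25 in tested genes. The tests planned on observed replicates could not be run on fitted values.

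The members, gene lists and tests were chosen with earlier results of these data known. Named are all members, Zfp36, other Schlafen symbols, at most 5 genes past the threshold with the largest change per list and comparison, and the 5 genes closest to a called member by Euclidean distance, of which 1 is not reported here. Nle1 and Rad51d and the marker genes were named after their values were seen. Gene positions, 28-base windows and 3′UTRs were taken from GENCODE vM21 (16836 of 16921 identifiers matched) and promoters from RefSeq. Alternatives were another filter (none, 50), scaling by library sums, the chromosome 11 median, pseudocounts of 1 and 10, adjustment over 3 comparisons together and sums of paralogs. Scripts, tested on simulated data, used Python 3.11.15, NumPy 2.4.6, pandas 2.3.3, SciPy 1.17.1 and matplotlib 3.10.9.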

Additional observations from a re-analysis of the deposited data

How the results depend on the processing

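With the chromosome 11 median subtracted, the number of Schlafen genes past the threshold was 1 in GFP-TTP-AA against GFP (Slfn2) in place of 0, and 2 in GFP-TTP-AA against GFP-TTP (Slfn2 and Slfn5) in place of 1, and Slfn3 turned from -0.05 to 0.060 in the latter (Wald adjusted p = 0.907). This setting moves every gene of the table alike, on chromosome 11 or not, by -0.03, 0.08 and 0.10 in GFP-TTP against GFP, GFP-TTP-AA against GFP and GFP-TTP-AA against GFP-TTP. Slfn5 kept its direction and its side of the threshold in every setting run, with -1.63 to -1.37 (Wald adjusted p at most 2.40e-06), 0.46 to 0.57 (adjusted p from 0.149 to 0.402) and 1.83 to 2.20 (adjusted p at most 2.10e-12) in these comparisons, the smallest values with a pseudocount of 10. For the gene lists, the filter at 50 on the interferon-stimulated genes (10, 5 and 19 past the threshold in these comparisons, in place of 13, 5 and 25) was planned, and the other settings were chosen after seeing the data. Among the latter, a pseudocount of 10 left 8 interferon-stimulated genes past the threshold in GFP-TTP against GFP in place of 13, and adjustment over the 3 comparisons together called 1 gene beside the cluster in place of 0 there. Sums of Slfn8 with Slfn9, of Slfn2, Slfn3 and Slfn4, and of Slfn3 with Slfn4 (the last chosen after seeing the data) were set against Slfn9, Slfn2 and Slfn3. Their log2 fold changes moved by at most 0.02. Each of these members makes up most of its sum, so that the small moves say nothing on how shared reads were assigned. No paired analysis was possible because the deposited values are fitted by a model that already holds the library date, so that neither a fit with or without a replicate block nor one that leaves out a library could be run.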
